A study of Mus musculus with 2 samples.

Results

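The genes described here encode the subunits of voltage-gated calcium and sodium channels. They were taken by name: every gene in the deposited feature list whose symbol begins with Cacna, Cacnb, Cacng, or Scn and a digit. The name rule was set with earlier results of these data known. There were 40 such genes among 46984 features. They comprise 10 genes for the pore of calcium channels, 4 for the calcium channel beta subunits, 4 for the alpha2delta subunits, 8 for the gamma subunits, 10 for the pore of sodium channels and 4 for the sodium channel beta subunits.

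Islet endocrine cells are electrically excitable. In beta cells, closure of potassium channels depolarises the membrane, voltage-gated calcium channels open, and the entering calcium triggers the release of insulin granules. Voltage-gated sodium channels carry part of the upstroke of the action potential. A calcium channel has 1 pore subunit, which sets the current type. In channels of the L, N, P/Q and R types it is joined by a cytoplasmic beta subunit and an extracellular alpha2delta subunit. These raise the number of channels at the surface. A sodium channel is 1 pore subunit with beta subunits that adjust its gating.

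The series profiled single islet cells of 1-month-old mice to ask what happens to endocrine cells that lose Isl1, a LIM-homeodomain transcription factor. Isl1CKO mice carried Neurod1 Cre/+ and Isl1f/f, that is, a Cre recombinase under Neurod1 control, which acts in endocrine cells, and both Isl1 alleles floxed. Control mice carried the same Cre allele with Isl1f/+, so control cells had also lost 1 copy of Isl1 wherever Cre had acted. A tdTomato reporter marked the sorted cells in both genotypes. Each genotype was 1 library of 3 pooled animals, dissociated with actinomycin D, an inhibitor of transcription. The labels describe the Isl1CKO animals as female and male and the control animals as males.

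Each genotype is a single library, so the differences have no replicate check and no p-values were computed. Intervals are at the 95% level and cover counting error only; they leave out differences between animals, sorts and captures. Transcripts were counted as UMIs, unique molecular identifiers that mark single captured RNA molecules at their 3′ end. The Isl1CKO library held 86086781 UMIs and the control library 48685758. After filters on depth, mitochondrial share and non-endocrine markers, 8111 Isl1CKO and 4196 control endocrine cells remained, with medians of 8156 UMIs per Isl1CKO cell and 9026.5 per control cell. Among barcodes with at least 1000 UMIs, 8 were shared by the libraries. No doublet caller was run. Among the control hormone groups, cells with several hormones were kept as a group of their own. The groups compared between genotypes, described below, did not exclude them. Leaving out the deepest 5% of cells was tried as an alternative.

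Levels are given in CPM, that is, UMIs of a gene per 1000000 UMIs of the summed cells, scaled between groups by the TMM method. Each molecule was counted at 1 end, so CPM were not divided by transcript length. Hormone transcripts took a large part of the UMIs in control cells, and the scaling matters. Without TMM the median log2 ratio of all genes was 0.60 over all endocrine cells, 0.99 in insulin cells, 0.48 in Irx cells and 0.42 in Hhex cells. With TMM it was -0.002 over all endocrine cells, 0.03 in insulin cells, 0.02 in Irx cells and 0.01 in Hhex cells. Shares of 1 gene within its own subunit family do not depend on any scaling, and are given beside the levels for that reason.

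Cells were grouped by their own transcripts. Control cells were sorted by which of Gcg, Sst, Ppy and insulin (Ins1 and Ins2 together) took at least 1% of their UMIs. Of these, 1575 had Gcg only, 217 Sst only, 437 Ppy only and 186 insulin only, and 1680 had several hormones. They are called Gcg, Sst, Ppy and Ins cells. Since Isl1CKO cells held few hormone transcripts, the genotypes were compared in groups set by 1 rule in both libraries. Insulin cells had insulin at 1% of UMIs or more (923 Isl1CKO cells and 307 control cells). Of the other cells, Irx cells had at least 2 UMIs of the alpha cell factors Irx1 and Irx2 and no UMI of the delta cell factor Hhex (2234 Isl1CKO cells and 1331 control cells). Hhex cells had at least 2 Hhex UMIs and none of Irx1 or Irx2 (72 Isl1CKO cells and 319 control cells). These rules set no limit on other hormones, so cells with several hormones could enter. Of the 307 control insulin cells, 186 had insulin only. Control Ins, Gcg and Sst cells served as alternative references for insulin, Irx and Hhex cells. Beyond that, the part of cells with several hormones in the ratios was not tested.

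These names describe the rule and not a mature cell type. Several defining genes of the types were far lower in Isl1CKO, though not all. In Isl1CKO Irx cells the glucagon gene Gcg was at 2538 CPM, against 417404 in control Irx cells. Of the 7 measured genes of the alpha cell list, 2 were 2-fold or more higher in Isl1CKO Irx cells, 3 were lower, and the median log2 ratio was -0.01. The transthyretin gene Ttr was among those higher, at 78855 CPM in Isl1CKO and 22267 in control Irx cells. In Isl1CKO insulin cells the beta cell maturity gene Ucn3 was at 0.832 CPM, against 142 in control insulin cells, and the beta cell enzyme gene G6pc2 was at 13.6, against 357 in control. In Isl1CKO Hhex cells Sst was at 4036 CPM, against 109686 in control Hhex cells, and Rbp4 was at 482, against 10045 in control. Isl1 itself was at 289 CPM in Isl1CKO and 374 CPM in control endocrine cells. The sources used here do not say which exons are floxed, so this 3′ count does not check the deletion.

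Both libraries held cells of both sexes, by UMIs of Xist or of Y-linked genes, against the label of the control animals. No sex was assigned to 1125 of 8111 Isl1CKO and 1495 of 4196 control endocrine cells. Of the endocrine cells that could be sexed, 76.0% were female in Isl1CKO and 35.9% in control. Genotype and sex make-up therefore cannot be told apart in sums over all cells, nor in sums over the compared groups. Among sexed insulin cells 65.6% were female in Isl1CKO and 26.4% in control. The shares were 73.1% in Isl1CKO and 42.4% in control Irx cells, and 93.5% in Isl1CKO and 25.7% in control Hhex cells. Ratios within each sex are given below for some of the members.

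Promoter sequences of 30 of the 40 genes were found in a RefSeq table of GRCm38.p6, covering 250 bases before to 50 bases after each start. They were searched on both strands for the motif CTAATNG, which resembles sites bound by LIM-homeodomain factors such as ISL1. Shown are those of 4 genes that were called in the comparisons below, chosen after their values were seen; Cacnb1 is shown at the start that holds the motif. Capitals mark a match. The motif is in 2 of 41 promoters of these genes, at Cacnb1 and Scn4b, and in 5.76% of all 32851 promoters.
Scn9a, chr2:66634913-66635212, minus strand: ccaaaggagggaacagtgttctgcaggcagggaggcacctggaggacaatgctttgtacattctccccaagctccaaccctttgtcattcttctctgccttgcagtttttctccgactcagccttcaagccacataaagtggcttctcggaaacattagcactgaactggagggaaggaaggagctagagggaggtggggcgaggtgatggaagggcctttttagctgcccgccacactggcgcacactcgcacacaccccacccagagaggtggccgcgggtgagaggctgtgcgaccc
Cacna2d2, chr9:107399630-107399929, plus strand: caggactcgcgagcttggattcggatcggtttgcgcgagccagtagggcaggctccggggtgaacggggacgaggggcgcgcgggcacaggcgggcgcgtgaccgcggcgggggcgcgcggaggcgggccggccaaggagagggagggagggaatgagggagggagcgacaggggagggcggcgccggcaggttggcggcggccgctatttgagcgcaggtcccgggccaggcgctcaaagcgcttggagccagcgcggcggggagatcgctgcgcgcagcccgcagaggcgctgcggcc
Cacna2d3, chr14:29721815-29722114, minus strand: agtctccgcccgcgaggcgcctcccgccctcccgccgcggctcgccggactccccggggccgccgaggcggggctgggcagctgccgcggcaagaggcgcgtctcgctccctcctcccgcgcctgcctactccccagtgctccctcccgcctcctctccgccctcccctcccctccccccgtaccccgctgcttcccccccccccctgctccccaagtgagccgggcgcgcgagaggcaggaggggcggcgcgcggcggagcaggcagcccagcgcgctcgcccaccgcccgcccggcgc
Cacnb1, chr11:98022578-98022877, minus strand: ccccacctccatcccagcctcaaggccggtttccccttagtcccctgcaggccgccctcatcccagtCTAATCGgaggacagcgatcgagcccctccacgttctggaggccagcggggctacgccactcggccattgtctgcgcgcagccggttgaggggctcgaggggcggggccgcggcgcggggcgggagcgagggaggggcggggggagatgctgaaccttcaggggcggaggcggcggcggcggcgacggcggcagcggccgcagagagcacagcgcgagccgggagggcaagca
The Scn9a promoter holds 9 CpG and is 57.3% G and C, near the medians of 7 and 52.7% over all promoters. The other 3 are 73.7% to 81.3% G and C, with 34 to 43 CpG. A match to the letters is a description of the sequence and shows no binding.

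Of the 40 genes, 18 reached 5 CPM in at least 1 cell group and are called measured. The other 22 stayed below it in all groups. They include the pore genes Cacna1b, Cacna1e, Cacna1f, Cacna1g, Cacna1i and Cacna1s, the beta gene Cacnb4, and the gamma genes Cacng1, Cacng3, Cacng5, Cacng6, Cacng7 and Cacng8. Among the sodium channel genes they include the pore genes Scn1a, Scn2a1, Scn4a, Scn7a, Scn10a and Scn11a, and the beta genes Scn2b and Scn4b.

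Among these 22, Cacna1b, the pore of the N-type calcium channel, came closest at 4.99 CPM. It had 4.20 CPM in Isl1CKO and 3.64 in control endocrine cells. Cacna1g, a T-type pore, had 4 UMIs in Isl1CKO and 52 in control endocrine cells, and the R-type pore gene Cacna1e had 1 UMI in Isl1CKO and 19 in control. Scn2b had 53 UMIs in Isl1CKO and 103 in control. Scn10a and Scn4a, pores known from sensory neurons and from skeletal muscle, had no UMI in either library.

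In the control library Cacna1d, the pore of an L-type channel of neuroendocrine cells, gave 46.4% (45.0 to 47.9) of the calcium channel pore UMIs of all endocrine cells and Cacna1a, the pore of the P/Q-type channel, 33.3% (32.0 to 34.6). The Cacna1d share of the pore UMIs was 50.3% (48.0 to 52.5) in Gcg cells, 41.4% (34.9 to 48.2) in Sst cells, 56.8% (51.1 to 62.4) in Ppy cells and 55.2% (48.9 to 61.4) in Ins cells. Cacna1a was second in these groups, with 32.4% in Gcg, 35.1% in Sst, 29.4% in Ppy and 32.0% in Ins cells. In Sst cells the intervals of the 2 shares overlap, with 28.9 to 41.8 for Cacna1a, so the order of these genes is not settled there. In control Hhex cells Cacna1d had 33.6% and Cacna1a 37.0%. Cacna1c, the L-type pore best known from heart, supplied 12.3% in Gcg cells and 6.3% to 8.9% in the other groups.

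By level, Cacna1d stood at 76.6 CPM (71.9 to 81.5) in Gcg cells, 73.7 (62.1 to 86.8) in Ins cells, 49.9 (40.2 to 61.2) in Sst cells and 48.0 (41.2 to 55.7) in Ppy cells. The first and second of these do not differ beyond counting error, nor do the third and the fourth. Cacna1a was at 42.3 to 49.3 CPM in Gcg, Sst and Ins cells and lower, at 24.8 CPM (20.0 to 30.5), in Ppy cells.

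The T-type pore gene Cacna1h, whose channels open near the resting potential, had a narrow distribution. It was at 15.2 CPM (10.1 to 22.0) in Sst cells, 3.55 (1.89 to 6.07) in Ppy cells and 0.858 (0.428 to 1.54) in Gcg cells, and had no UMI in the 186 Ins cells, where 3 UMIs would be 1.55 CPM. Its log2 ratio of Sst over Gcg cells was 4.07 (3.10 to 5.30). Control Hhex cells, chosen without Sst, had 17.4 CPM (13.0 to 22.8).

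Among the alpha2delta genes, Cacna2d1 supplied 79.3% to 96.6% of the UMIs of its family in the 4 control hormone groups, at 111 to 132 CPM. It was higher in Ins than in Gcg cells, by 0.26 on the log2 scale (0.05 to 0.44), and higher in Ppy than in Gcg cells, by 0.18 (0.02 to 0.33). The minor members were distributed unequally. Cacna2d2 was at 22.2 CPM (16.0 to 30.2) in Sst cells, 3.09 (1.14 to 6.73) in Ins cells and 0.156 (0.0189 to 0.563) in Gcg cells, and had no UMI in Ppy cells. Cacna2d4, known for its part in retinal photoreceptors, was at 9.28 CPM (7.69 to 11.1) in Gcg cells, 2.18 in Ppy and 0.543 in Sst cells, and had no UMI in Ins cells. Cacna2d3 was at 8.14 CPM (4.56 to 13.4) in Sst, 4.64 in Ppy, 1.55 in Ins and 0.234 in Gcg cells.

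Beta subunit transcripts came for the most part from Cacnb3 and Cacnb2. Cacnb3, a beta subunit of neurons and endocrine cells, supplied 44.1% to 58.0% in the 4 groups and Cacnb2, a beta subunit abundant in heart, 36.7% to 48.6%. In Ins cells Cacnb3 had 58.0% (49.1 to 66.6) and Cacnb2 38.2% (29.8 to 47.1), and in Ppy cells Cacnb3 had 54.8% (48.8 to 60.7) and Cacnb2 36.7% (31.0 to 42.6). Their intervals overlap in Gcg and Sst cells. Cacnb1, best known from skeletal muscle, supplied 3.4% to 7.1%, and Cacnb4 stayed below 5 CPM. Of the gamma genes, whose products mostly serve as auxiliary subunits of AMPA glutamate receptors, Cacng4 was the most abundant. It stood at 28.3 CPM (25.5 to 31.4) in Gcg cells and 18.6 (14.4 to 23.5) in Ppy cells, against 3.80 in Sst cells and 3.09 in Ins cells. Cacng2, stargazin, reached 4.88 CPM (2.23 to 9.27) in Sst cells and at most 0.273 in the other 3 groups.

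**Figure D1:**
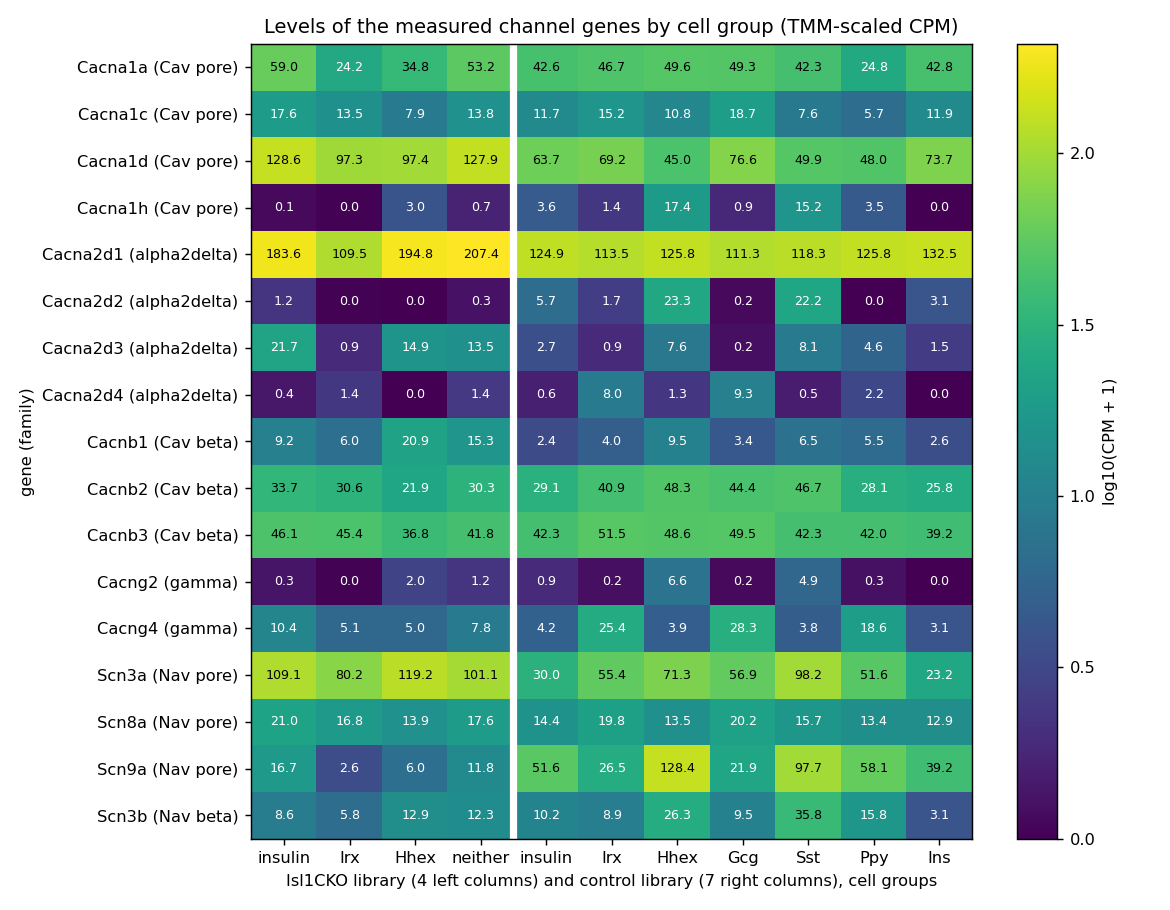
TMM-scaled CPM of 17 measured genes (rows, with their subunit family) in 4 Isl1CKO and 7 control cell groups (columns). Colour shows log10(CPM + 1) and the printed number the CPM. Cacna1d, Cacna2d1 and Scn3a are bright in every Isl1CKO column, while Scn9a is at 2.55 to 16.7 CPM in the 4 Isl1CKO groups and at 21.9 to 128 CPM in the 7 control groups.

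Sodium channel pores were split between 3 genes in control cells. Scn9a is known from peripheral sensory neurons, Scn3a from the embryonic brain and Scn8a from the adult brain. Scn9a was at 97.7 CPM (83.9 to 113) in Sst cells, 58.1 (50.6 to 66.5) in Ppy cells, 39.2 (30.9 to 49.0) in Ins cells and 21.9 (19.4 to 24.6) in Gcg cells, and no 2 of these intervals overlap. Scn3a was at 98.2 CPM (84.4 to 114) in Sst cells, 56.9 in Gcg cells, 51.6 in Ppy cells and 23.2 (16.9 to 31.0) in Ins cells. Sst cells thus had the most transcripts of both genes, with a log2 ratio of Sst over Gcg cells of 2.16 (1.88 to 2.43) for Scn9a and 0.79 (0.54 to 1.02) for Scn3a.

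The 1680 control cells with several hormones lay above Gcg, Ppy and Ins cells for Scn9a, Cacna2d2 and Cacna1h, which were high in Sst cells. They had 93.0 CPM (88.3 to 97.8) of Scn9a, 15.4 (13.5 to 17.4) of Cacna2d2 and 12.0 (10.4 to 13.8) of Cacna1h.

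As shares of pore UMIs, Scn3a led in Gcg cells with 54.9% (52.2 to 57.6) and Scn9a in Ins cells with 52.1% (43.6 to 60.4). In Sst cells the shares were 45.5% for Scn3a and 45.2% for Scn9a, and in Ppy cells 41.2% for Scn3a and 46.4% for Scn9a, with overlapping intervals in both. The Ins value rests on 76 Scn9a UMIs and was 40.0% without the deepest 5% of cells. That cut was taken over all control endocrine cells and left 110 of the 186 Ins cells. With a hormone limit of 5% the share of Scn3a in Sst cells was 36.8%. Scn8a supplied 7.3% in Sst cells, at 15.7 CPM, and 19.5% in Gcg cells, at 20.2 CPM.

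Of the sodium channel beta genes, which adjust gating and placement of the pore, Scn3b was at 35.8 CPM (27.7 to 45.6) in Sst, 15.8 in Ppy, 9.52 in Gcg and 3.09 (1.14 to 6.73) in Ins cells. It was highest in Sst cells, where it supplied 91.7% (82.7 to 96.9) of 72 UMIs of the family.

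In the comparison of Isl1CKO with control over all endocrine cells, 16 of the 40 genes were measured. A call needed a ratio of at least 2-fold, an interval that excludes 1 and 5 CPM or more in 1 of the libraries. Of the 16, 1 was called higher, Cacna2d3, and 4 were called lower, Cacna2d2, Cacna1h, Scn9a and Cacng4. Of all 10347 measured genes 5.94% were called higher and 6.92% lower. The median log2 ratio of the 16 was 0.01 and that of all measured genes 0.00. In such sums a change in cell numbers and a change in transcripts per cell cannot be told apart.

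In insulin cells 15 genes were measured. Of these 5 were called higher, Cacna2d3, Scn3a, Cacnb1, Cacng4 and Cacna1d, and 2 lower, Cacna2d2 and Scn9a. Of all 10267 measured genes 8.10% were called higher and 6.83% lower. In Irx cells 14 were measured, of which none was called higher and 3 were called lower, Scn9a, Cacna2d4 and Cacng4, against 6.43% higher and 7.02% lower of 10192 genes. In Hhex cells 16 were measured. Here 3 were called higher, among them Cacnb1 and Cacna1d, and 4 lower, Cacna2d2, Scn9a, Cacna1h and Cacnb2. Of all 10302 measured genes 9.68% were called higher and 9.24% lower. Female Hhex cells alone numbered 58 in Isl1CKO and 54 in control. Among them the log2 ratio was -4.28 for Scn9a, -2.49 for Cacna1h and -1.10 for Cacnb2. It was 1.44 for Cacna1d and 2.09 for Cacnb1 (2 UMIs in control), and Cacna2d2 had 0 UMIs in Isl1CKO and 15 in control. The medians of the measured genes were 0.51 in insulin cells, -0.33 in Irx cells and -0.35 in Hhex cells, beside 0.03, 0.02 and 0.01 for all genes.

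Scn9a was called lower in every comparison. Over all endocrine cells it was at 8.91 CPM (8.32 to 9.53) in Isl1CKO and 62.3 CPM (59.8 to 64.9) in control, a log2 ratio of -2.81 (-2.92 to -2.69). In Irx cells it was at 2.55 CPM (2.00 to 3.21) in Isl1CKO and 26.5 (23.7 to 29.5) in control, a ratio of -3.36 (-3.76 to -3.01). Hhex cells held 6 Scn9a UMIs in Isl1CKO, 5.96 CPM (2.19 to 13.0), and 391 in control, 128 CPM (116 to 142), a ratio of -4.21 (-5.88 to -3.29). In insulin cells it was at 16.7 CPM (14.6 to 18.9) in Isl1CKO and 51.6 (44.2 to 60.0) in control, a ratio of -1.64 (-1.92 to -1.34). Without TMM that ratio was -0.70, short of a call.

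Scn3a was higher in Isl1CKO. In insulin cells it was at 109 CPM (104 to 115) in Isl1CKO and 30.0 (24.4 to 36.5) in control, a log2 ratio of 1.85 (1.57 to 2.17), called higher. It was below 2-fold in the other comparisons. It had 95.3 CPM in Isl1CKO and 60.4 in control endocrine cells (0.66), 80.2 CPM in Isl1CKO and 55.4 in control Irx cells (0.53), and 119 CPM in Isl1CKO and 71.3 in control Hhex cells (0.75). These 4 directions were the same under all 4 scalings. In male Irx cells the ratio was 0.16 (-0.04 to 0.36), and in female Irx cells 0.84. Scn8a was not called in any comparison. Its log2 ratio was 0.12 over all endocrine cells, 0.51 in insulin, -0.24 in Irx and 0.11 in Hhex cells, and in all but insulin cells its sign depended on the scaling.

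The make-up of the sodium channel pores, which no scaling can alter, also differed between the libraries. Scn3a supplied 76.8% (76.0 to 77.5) of pore UMIs in Isl1CKO and 42.4% (41.0 to 43.7) in control endocrine cells, and Scn9a 7.2% (6.7 to 7.7) in Isl1CKO and 43.7% (42.4 to 45.1) in control. In insulin cells Scn3a made up 74.0% in Isl1CKO and 31.1% in control, and Scn9a 11.3% in Isl1CKO and 53.4% in control. In Irx cells the Scn9a share was 2.5% in Isl1CKO and 25.2% in control, and in Hhex cells 4.3% (1.6 to 9.1) in Isl1CKO and 59.2% (55.3 to 62.9) in control. Summed over the family, pore transcripts had a log2 ratio of 0.60 in insulin cells, -0.05 in Irx cells and -0.63 in Hhex cells, and in Irx cells the sign depended on the scaling.

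**Figure D2:**
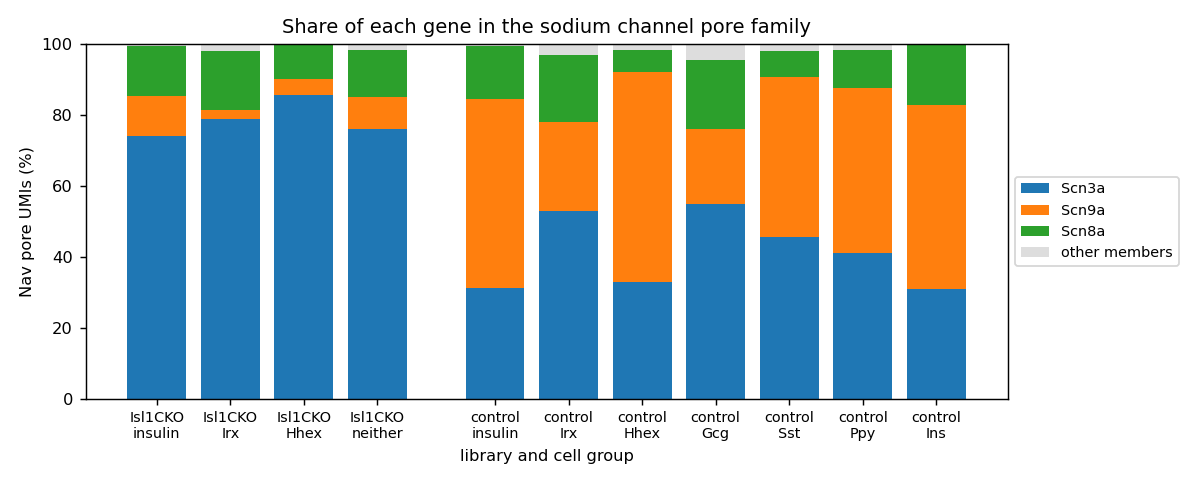
Percent of the UMIs of the sodium channel pore family from each gene (vertical axis), by library and cell group (horizontal axis). Scn9a takes 2.5% to 11.3% of pore UMIs in the 4 Isl1CKO groups and 21.1% to 59.2% in the 7 control groups.

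Scn3a and Scn9a lie in 1 cluster of sodium channel genes on GRCm38 chromosome 2, with Scn3a at 65457118 to 65567627 and Scn9a at 66480080 to 66634962, both on the minus strand. The 3 genes that lie in the same cluster, Scn2a1, Scn1a and Scn7a, were not measured in any group. Scn2a1 had 120 UMIs in Isl1CKO and 69 in control endocrine cells, Scn1a 12 UMIs in Isl1CKO and 18 in control, and Scn7a 47 in Isl1CKO and 32 in control.

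The Scn9a difference was found in cells of each sex, with unequal size. In female cells it was at 5.65 CPM in Isl1CKO and 51.3 in control, a log2 ratio of -3.18, and in male cells at 15.7 CPM in Isl1CKO and 65.3 in control, a ratio of -2.06. In male insulin cells the levels were 28.5 CPM in Isl1CKO and 56.4 in control and the ratio -0.99, just under the limit for a call, against 10.2 CPM in Isl1CKO and 42.5 in control female insulin cells (-2.09). Within Isl1CKO, Scn9a thus supplied 14.0% of pore UMIs in male and 4.1% in female endocrine cells, while control cells had 45.4% in male and 39.0% in female cells. In Irx cells the Scn9a ratio was -2.63 among males and -4.35 among females. For Scn3a the insulin cell ratio was 1.75 among males and 2.17 among females, and that over all endocrine cells 0.37 among males and 0.93 among females.

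**Figure D3:**
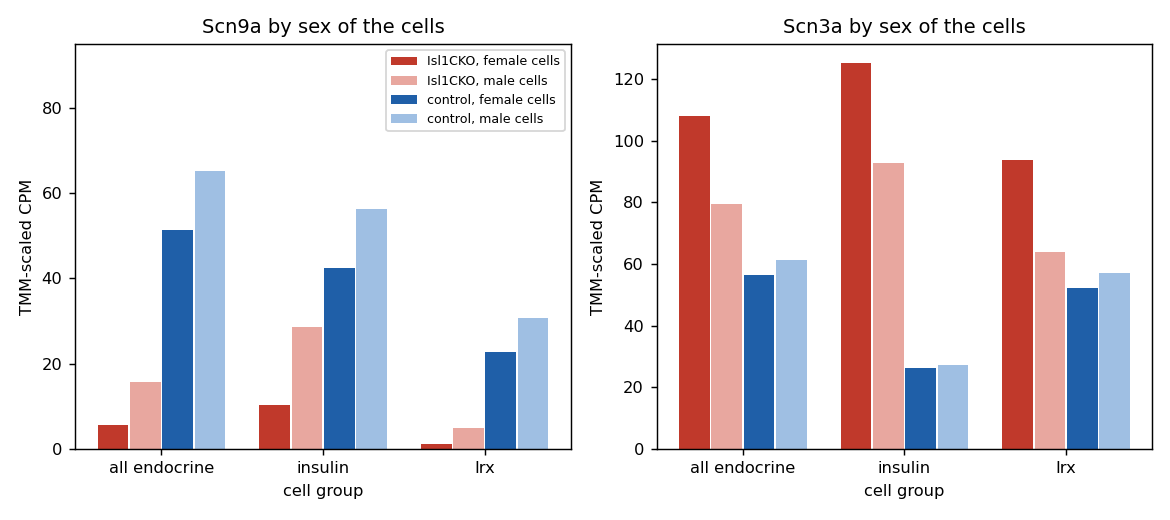
TMM-scaled CPM of Scn9a (left) and Scn3a (right) in female and male cells of each library, over all endocrine cells, insulin cells and Irx cells; Hhex cells are left out because only 4 Isl1CKO Hhex cells were male. Bars are single values of pooled cells, without replicates. Both Isl1CKO bars of Scn9a are lower than both control bars in each group.

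Summed, the 4 sodium channel beta genes stood at 16.0 CPM in Isl1CKO and 24.1 in control endocrine cells, a log2 ratio of -0.59 (-0.71 to -0.47). Scn3b, which is high in control Sst cells, had ratios of -0.72 over all endocrine cells, -0.94 in Hhex cells and -0.62 in Irx cells, none of them called. In insulin cells Scn3b was at 8.60 CPM in Isl1CKO and 10.2 in control. Against control Ins cells alone, at 3.09 CPM (6 UMIs), the ratio was 1.27.

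Of the calcium channel pore genes, Cacna1d was higher in Isl1CKO in each comparison, by 2-fold or more in insulin and Hhex cells. It was at 129 CPM (123 to 135) in Isl1CKO and 63.7 (55.4 to 72.8) in control insulin cells, a log2 ratio of 1.01 (0.81 to 1.23). In Hhex cells it was at 97.4 CPM (79.1 to 119) in Isl1CKO and 45.0 (37.8 to 53.2) in control, a ratio of 1.12 (0.72 to 1.50). Both lie next to the 2-fold limit. The insulin call was lost with DESeq2 size factors (0.95), with hormone genes excluded from the totals (0.83), in male cells (0.83), at an insulin limit of 5% (0.97) and against control Ins cells (0.79). The Hhex call was lost with hormone genes excluded (0.98) and against control Sst cells (0.96). In the sum of endocrine cells it was at 118 CPM in Isl1CKO and 62.0 in control (0.92). In Irx cells it was at 97.3 CPM in Isl1CKO and 69.2 in control (0.49), a ratio that was 0.10 (-0.07 to 0.28) among males and 0.68 among females.

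Cacna1a, the P/Q-type pore, did not follow Cacna1d. In Irx cells it was at 24.2 CPM (22.4 to 26.1) in Isl1CKO and 46.7 (43.0 to 50.7) in control, a log2 ratio of -0.95 (-1.11 to -0.79). In insulin cells it was at 59.0 CPM in Isl1CKO and 42.6 in control (0.46). The Irx value is not called, and it passed the 2-fold limit against control Gcg cells (-1.03) and with hormone genes excluded from the totals (-1.22). As a share of pore UMIs in Irx cells, Cacna1d made up 69.0% (67.5 to 70.4) in Isl1CKO and 49.8% (47.4 to 52.2) in control, and Cacna1a 17.2% (16.0 to 18.4) in Isl1CKO and 33.6% (31.4 to 35.9) in control. Within male Irx cells the Cacna1a share was 21.0% in Isl1CKO and 33.9% in control, and within female Irx cells 14.8% in Isl1CKO and 29.1% in control. Among all male endocrine cells the share was 32.0% in Isl1CKO and 34.0% in control, and among all female ones 19.8% in Isl1CKO and 29.1% in control. Over all endocrine cells the log2 ratio of Cacna1a was 0.34 (0.21 to 0.47) among males and -0.08 (-0.24 to 0.10) among females.

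Cacna1h, the T-type pore of control Sst cells, was at 0.444 CPM (0.320 to 0.601) in Isl1CKO and 6.93 (6.10 to 7.84) in control endocrine cells, a log2 ratio of -3.93 (-4.47 to -3.49). In Hhex cells it had 3 UMIs in Isl1CKO, 2.98 CPM, and 53 in control, 17.4 CPM, a ratio of -2.16 (-4.87 to -0.92). The wider rule of 1 or more Hhex UMIs gave 366 Isl1CKO cells with 8 UMIs, 1.73 CPM, and 670 control cells with 105 UMIs, 18.0 CPM. Cacna1c had ratios of 0.05 over all endocrine cells, 0.55 in insulin, -0.18 in Irx and -0.32 in Hhex cells, none called. Its sign depended on the scaling in all but insulin cells.

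Summed pore transcripts of calcium channels were at 210 CPM in Isl1CKO and 127 in control insulin cells, a log2 ratio of 0.72 (0.57 to 0.87), and at 141 CPM in Isl1CKO and 139 in control Irx cells, a ratio of 0.02 whose sign depended on the scaling. The ratio in the sum of endocrine cells was 0.44 (0.40 to 0.49).

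**Figure D4:**
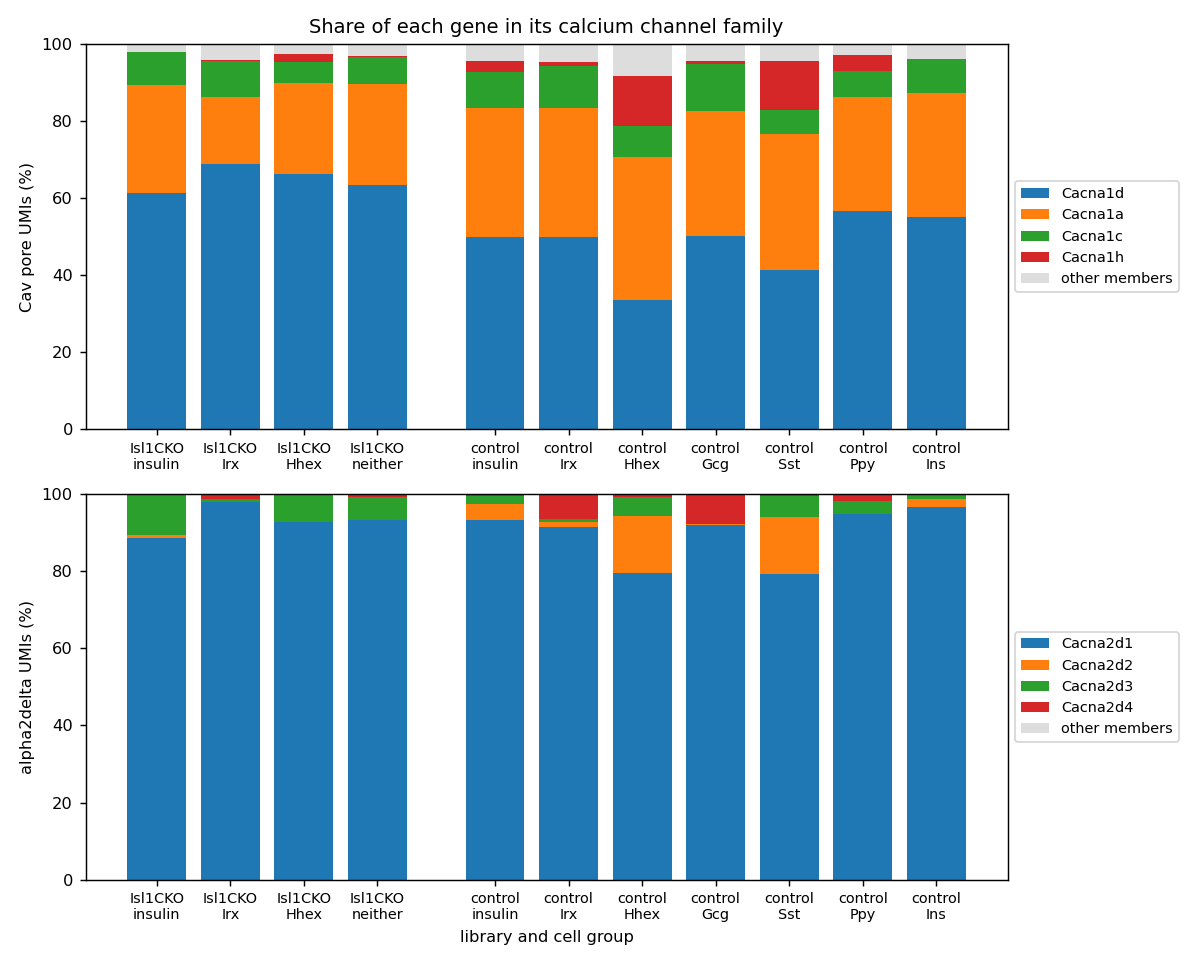
Percent of the UMIs of the calcium channel pore family (upper panel) and the alpha2delta family (lower panel) from each gene, by library and cell group. Cacna1d takes 61.3% to 69.0% of pore UMIs in the 4 Isl1CKO groups and 33.6% to 56.8% in the 7 control groups, and Cacna2d2 takes 14.9% of alpha2delta UMIs in control Sst cells and at most 0.6% in the 4 Isl1CKO groups.

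Of the alpha2delta genes, Cacna2d2 was lower in Isl1CKO in all endocrine, insulin and Hhex cells, Cacna2d4 was lower in Irx cells and Cacna2d3 was higher in all endocrine and insulin cells. Cacna2d2 was at 0.360 CPM (0.249 to 0.503) in Isl1CKO and 8.16 (7.26 to 9.14) in control endocrine cells, a log2 ratio of -4.47 (-5.06 to -3.99), which was -3.27 among males and -4.90 among females. In Hhex cells it had 0 UMIs in Isl1CKO and 71 in control, at 23.3 CPM, which is at least 7.82-fold lower with 3 UMIs taken as the floor of the Isl1CKO group. Under the wider Hhex rule it had 2 UMIs in Isl1CKO and 128 in control. In insulin cells it was at 1.25 CPM (18 UMIs) in Isl1CKO and 5.70 (19 UMIs) in control, a ratio of -2.19. That call was lost in 5 of 11 alternatives, among them control Ins cells (-1.45). Dropping the minimum CPM, also among the 11, could not lose it. Some control insulin cells also held other hormones: Sst was at 1.11 CPM in Isl1CKO and 17583 CPM in control insulin cells, and its part in this ratio was not tested.

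Cacna2d3 was at 21.7 CPM (19.4 to 24.3) in Isl1CKO and 2.70 (1.24 to 5.13) in control insulin cells, a log2 ratio of 2.86 (2.06 to 4.15). The control value rests on 9 UMIs. Male insulin cells had 75 UMIs in Isl1CKO and 4 in control, and female ones 191 in Isl1CKO and 0 in control. The lowest ratio in 11 alternatives was 2.47, and each of them kept the call, though dropping the minimum CPM could not lose it. In the sum of endocrine cells Cacna2d3 was at 10.1 CPM in Isl1CKO and 4.05 in control (1.31), and that ratio was 0.90 among males, short of a call, and 2.00 among females. In Irx cells it was at 0.908 CPM in Isl1CKO and 0.880 in control. By level, it was highest in Sst and Hhex cells of the control library and in insulin cells of Isl1CKO, where its ratio of insulin over Irx cells was 4.53 (4.00 to 5.22).

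Cacna2d4, which was highest in control Gcg cells, was at 1.36 CPM (0.969 to 1.86) in Isl1CKO and 8.0 (6.51 to 9.73) in control Irx cells, a log2 ratio of -2.53 (-3.13 to -2.01). Among males it was -2.18 and among females -2.43. Cacna2d1, the most abundant of all 40 genes by CPM, was at 184 CPM in Isl1CKO and 125 in control insulin cells (0.55), and at 109.5 in Isl1CKO and 113 in control Irx cells (-0.05), where its sign depended on the scaling.

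Of the beta subunit genes, Cacnb1 was called higher in insulin and Hhex cells and Cacnb2 lower in Hhex cells. Cacnb1 was at 9.23 CPM (7.73 to 10.9) in Isl1CKO and 2.40 (1.04 to 4.73) in control insulin cells, a log2 ratio of 1.78 (0.92 to 3.18), and at 20.9 CPM (21 UMIs) in Isl1CKO and 9.52 CPM (29 UMIs) in control Hhex cells, a ratio of 1.15 (0.25 to 1.99). Its ratio was 0.95 over all endocrine cells (0.60 among males, 1.45 among females) and 0.58 in Irx cells, and it was above 0 under all 4 scalings in each comparison. In Hhex cells Cacnb2 had 21.9 CPM (22 UMIs) in Isl1CKO and 48.3 (147 UMIs) in control, a ratio of -1.09 (-1.86 to -0.49), and its ratio of -0.83 under the wider Hhex rule fell short of a call. Cacnb3 was not called in any comparison, with ratios between -0.37 and 0.12, and its sign depended on the scaling in all but Hhex cells.

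Of the gamma genes, Cacng4 was called lower in Irx cells and higher in insulin cells. In Irx cells it was at 5.10 CPM (4.31 to 6.0) in Isl1CKO and 25.4 (22.7 to 28.4) in control, a log2 ratio of -2.31 (-2.61 to -2.03), and this ratio was -2.31 among males and -2.25 among females. In insulin cells it was at 10.4 CPM (8.81 to 12.2) in Isl1CKO and 4.20 (2.30 to 7.05) in control, a ratio of 1.22 (0.52 to 2.21). The insulin value was 2.09 (1.04 to 4.00) among males, with 5 control UMIs, and 0.38 (-0.84 to 3.09) among females, with 3 control UMIs. It was not called in females or without the deepest 5% of cells (0.60), a cut that left 206 of 307 control insulin cells. The difference between these ratios was not tested. Cacng2 was measured in Hhex cells alone, with 2 UMIs in Isl1CKO and 20 in control, a ratio of -1.21 (-4.87 to 0.32) that is no call.

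Within the Isl1CKO library the largest group, of 3787 cells, had insulin under 1% and no UMI of Irx1, Irx2 or Hhex. They had a median of 6868 UMIs. Cacna2d1 was at 207 CPM (203 to 212) in them and 109.5 in Isl1CKO Irx cells, a log2 ratio of 0.92 (0.86 to 0.98). Cacna1a was at 53.2 CPM in them and 24.2 in Irx cells (1.14), and Cacna2d3 at 13.5 CPM in them and 0.908 in Irx cells (3.84). Scn9a was at 11.8 CPM in them and 2.55 in Irx cells (2.19). Set against Isl1CKO insulin cells, their levels of Cacna1d and Scn3a were close, with log2 ratios of insulin cells over them of 0.01 (-0.07 to 0.08) and 0.11 (0.02 to 0.19). For Cacnb1 that ratio was -0.72 (-1.01 to -0.45). A cell with few UMIs can hold no UMI of a factor that it expresses, so this group is bounded by depth as well as by its factors.

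Isl1CKO insulin cells at 5% insulin or more (464 cells) and at 1% to 5% (459 cells) differed by less than 2-fold in 4 pore genes. The log2 ratio of the high over the low insulin cells was 0.06 (-0.07 to 0.20) for Cacna1d, -0.12 (-0.32 to 0.08) for Cacna1a, 0.07 (-0.07 to 0.22) for Scn3a and -0.12 (-0.50 to 0.25) for Scn9a. Cacna2d2 had 15 UMIs in the high group and 3 in the low group, a ratio of 1.90 (0.40 to 4.65). Cacna2d1 was slightly lower in the high group, at -0.23 (-0.34 to -0.12).

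The 29 genes on a list of regulators of these channels were read against the share of all genes called. In the sum of endocrine cells, where 5.94% of all genes were called higher and 6.92% lower, 21 were measured, 0 called higher and 1 lower, the calcium-binding protein gene Cabp1, at 2.60 CPM in Isl1CKO and 6.0 in control (log2 ratio -1.21). In insulin cells, with 8.10% of all genes higher and 6.83% lower, 20 were measured. There 1 was called higher, Tmem37, which encodes a gamma-like calcium channel subunit, at 15.1 CPM in Isl1CKO and 4.50 in control (1.65), and 1 lower, Cabp1 (-1.59).

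In Irx cells 19 of the regulators were measured, with 3 called higher and 1 lower, beside 6.43% higher and 7.02% lower of all genes. Fgf12, an intracellular partner of sodium channels, was at 85.8 CPM in Isl1CKO and 30.2 in control. Rem2, a GTPase that inhibits calcium channels, was at 24.4 CPM in Isl1CKO and 11.4 in control (1.09), and Tmem37 at 25.3 CPM in Isl1CKO and 11.3 in control (1.16). The kinase gene Camk2b was lower, at 63.3 CPM in Isl1CKO and 129 in control (-1.02). In Hhex cells, with 9.68% of all genes higher and 9.24% lower, 21 were measured, with 1 called higher (Camk2d, 1.43) and 3 lower (Fgf14, Cabp1 and Fam155a, -1.45 to -1.02). The median log2 ratios of the measured regulators were -0.16 over all endocrine cells, 0.07 in insulin cells, -0.11 in Irx cells and -0.43 in Hhex cells.

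Of the 31 genes listed for other steps of calcium handling, Itpr1, the IP3 receptor that releases calcium from the endoplasmic reticulum, was called lower in all 4 comparisons. It was at 24.4 CPM in Isl1CKO and 197 in control endocrine cells (log2 ratio -3.01). In insulin cells it was at 12.6 CPM in Isl1CKO and 77.2 in control (-2.61), in Irx cells at 43.8 in Isl1CKO and 269 in control (-2.62) and in Hhex cells at 15.9 in Isl1CKO and 164 in control (-3.28). Its relative Itpr2 was at 13.0 CPM in Isl1CKO and 3.94 in control endocrine cells (1.71).

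In insulin cells Trpm5, a calcium-activated cation channel, was at 0.416 CPM in Isl1CKO and 38.1 in control (-6.31), and Orai2, a store-operated calcium channel, at 13.7 CPM in Isl1CKO and 2.40 in control (2.35). In all, 1 of 20 measured genes of this list was called higher and 2 lower over all endocrine cells, 1 and 2 of 21 in insulin cells, 0 and 2 of 18 in Irx cells and 1 and 2 of 20 in Hhex cells. Of all genes 5.94% were called higher and 6.92% lower over all endocrine cells, 8.10% and 6.83% in insulin cells, 6.43% and 7.02% in Irx cells and 9.68% and 9.24% in Hhex cells. The counts of the list lie near these shares. The list's median log2 ratios were -0.12 over all endocrine cells, -0.09 in insulin cells, -0.16 in Irx cells and -0.13 in Hhex cells.

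Markers of other cell types were measured in the same cells. The summed list of 6 neuronal genes, of interest since neurons express many of these channels, was at 153 CPM in Isl1CKO and 122 in control endocrine cells. Snap25 and Elavl4, which islet cells also express, gave most of it, while the peripheral neuron marker Prph had 3 UMIs in Isl1CKO and 4 in control. The 4 glial genes summed to 5.60 CPM in Isl1CKO and 15.8 in control, the 6 endothelial genes to 24.3 in Isl1CKO and 28.7 in control, the 8 stromal genes to 0.592 in Isl1CKO and 4.19 in control, and the 13 immune genes to 79.7 in Isl1CKO and 189 in control. The 11 acinar genes summed to 192 CPM in Isl1CKO and 138 in control endocrine cells. Of the 9 of them that were measured, 8 were called higher and 1 lower, Cela1, at 6.91 CPM in Isl1CKO and 88.4 in control, and their median log2 ratio was 1.64. Acinar genes were also called higher in insulin cells (8 of 10, median 1.43), Irx cells (5 of 8, 1.25) and Hhex cells (8 of 10, 1.73). The part of these markers in the differences above was not tested. Mitochondrial transcripts took a median of 1.52% of UMIs in Isl1CKO and 0.630% in control cells.

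Free RNA, read from barcodes with 10 to 100 UMIs, contained these genes too. If all acinar UMIs of Isl1CKO endocrine cells were free RNA, free RNA would make up 2.09% of their UMIs. If all Cacna2d2 UMIs of control Gcg cells were free RNA, it would make up 2.15% of theirs. This bound rests on 2 UMIs in those cells and 12 in free RNA. With Cacna2d3, at 3 UMIs in those cells and 11 in free RNA, it was 3.51%. The same bound from acinar genes in control cells was 24.9%, with acinar genes at 11296 CPM of the free RNA in Isl1CKO and 453 CPM in control. Genes on the opposite strand overlap exons of several members, and the strand setting of the counts is not given in the sources used here. The largest overlap at a called gene was 589 bases of Cacna1d with Chdh, which had 82 UMIs in Isl1CKO and 19 in control, beside 11119 Cacna1d UMIs in Isl1CKO and 2262 in control. Antisense genes at Scn9a and Cacna2d2 had 0 UMIs in both libraries, as had Tpsg1, which overlaps Cacna1h.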

How the data were processed

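Single-cell RNA was measured in 2 libraries, 1 per genotype. The authors deposited unfiltered UMI counts per gene and barcode, made from 10x 3′ v3.1 libraries per the labels' protocols; the submitters' processing notes list STARsolo (STAR 2.7.3a), Seurat 4.3.0.1 and GRCm38.p6. Barcodes were kept if they held 1000 UMIs and 500 genes or more and if mitochondrial UMIs were at most 15% (8231 Isl1CKO, 4219 control). Of these, 85 Isl1CKO and 6 control cells with 1% or more acinar UMIs were left out, and 35 Isl1CKO and 17 control cells with 5 or more UMIs from 3 or more other non-endocrine genes. No clusters were made.

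UMIs were summed per library and cell group, scaled by TMM (edgeR 4.0.16, R 4.3.3) and given as CPM. Log2 ratios have 1 UMI added, and ratio intervals are exact conditional Poisson intervals (scipy 1.17.1, Python 3.11.15). Share intervals are Clopper-Pearson. No count model was fitted, since each genotype has 1 library; the ratio step was tested on simulated counts. Alternatives were other scalings (none, hormone genes left out of totals, DESeq2 1.42.0 size factors), filters, sexes and group limits. Named genes were the measured members and the called genes of 2 lists (channel regulators, calcium handling). Members and lists were chosen with earlier results of these data known. Sexes were read from Xist and Y-linked UMIs: a cell with Xist and no Y-linked UMI was female, the reverse male. Promoters are RefSeq sequences of GRCm38.p6. Results of a few genes are not reported here.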

Additional observations from a re-analysis of the deposited data

Results flagged for a closer look

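With TMM scaling, Irx cells gave opposite directions in the sexes for 2 genes, each beyond counting error within its sex. Cacnb3 was at 34.5 CPM in Isl1CKO and 54.7 in control male Irx cells, a log2 ratio of -0.67, and at 52.7 CPM in Isl1CKO and 38.3 in control female Irx cells, a ratio of 0.45. Cacna2d1 was at 136 CPM in Isl1CKO and 113 in control male Irx cells, a ratio of 0.26, and at 91.0 CPM in Isl1CKO and 106 in control female Irx cells, a ratio of -0.23. In Irx cells of both sexes together, the sign of both genes depended on the scaling. The ratio ran from -0.46 to 0.27 for Cacnb3 and from -0.33 to 0.40 for Cacna2d1. Other scalings were not tried within each sex. The differences between the sexes were not tested, since each sex is part of 1 pooled library per genotype.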

How the results depend on the processing

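The 22 called values were recomputed in 225 alternatives: 200 kept the call, 25 fell short of it and 0 reversed. The kept values include 22 without a minimum CPM, a setting that reuses the same counts and ratios and cannot lose a call. Among values that were not called, the ratio of Scn3b in insulin cells reversed, to 1.27, against control Ins cells (main value -0.28). Those control cells held 6 Scn3b UMIs.

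The counts of called members were 1 higher and 4 lower over all endocrine cells, 5 higher and 2 lower in insulin cells, 0 higher and 3 lower in Irx cells and 3 higher and 4 lower in Hhex cells, and they moved with the setting. Without TMM, 4 were higher and 3 lower over all endocrine cells, 11 higher and 0 lower in insulin cells, 1 higher and 3 lower in Irx cells and 5 higher and 3 lower in Hhex cells. That setting put the median log2 ratio of all genes at 0.60 over all endocrine cells, 0.99 in insulin, 0.48 in Irx and 0.42 in Hhex cells, and called 2350 of 10463, 5003 of 10091, 1771 of 10109 and 1974 of 11042 genes higher in these comparisons. With hormone genes excluded from the totals, 1 was higher and 5 lower over all endocrine cells, 4 higher and 3 lower in insulin cells, 0 higher and 5 lower in Irx cells and 2 higher and 5 lower in Hhex cells, with medians of all genes at -0.17, -0.16, -0.28 and -0.11. With no minimum CPM, 11 were lower over all endocrine cells, 3 lower in insulin cells, and 1 higher and 9 lower in Irx cells. Without the deepest 5% of cells, 2 were higher over all endocrine cells, 4 in insulin cells and 2 in Hhex cells. In male cells 0 were higher over all endocrine cells, 3 were higher and 1 lower in insulin cells and 4 lower in Irx cells. In female cells 2 were higher and 5 lower over all endocrine cells, 4 higher in insulin cells, 1 higher and 4 lower in Irx cells and 2 higher in Hhex cells. DESeq2 size factors left 4 higher in insulin cells, and an insulin limit of 5% left 4 higher and 1 lower. Against control Gcg cells 4 were lower in Irx cells, and against control Sst cells 2 were higher and 5 lower in Hhex cells. Counts not given for a setting did not move, and male Hhex cells were not compared. The causes were not tested.

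Calls lost and not given above were Cacnb1 in male insulin cells (1.06), Cacnb1 in Hhex cells without the deepest 5% of cells (0.97), Cacng4 over all endocrine cells without TMM (-0.64) and in male cells (-0.66), and Cacnb2 in Hhex cells without TMM (-0.73). Counts of a few UMIs limit the Hhex comparison, where Isl1CKO had 72 cells. No paired analysis was possible because each genotype has 1 library.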
